A study of Mus musculus with 6 samples.

Results

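The hippocampal subfield markers are 10 genes that label the principal neurons of separate subfields: Wfs1, Fibcd1 and Pou3f1 for CA1, Rgs14, Amigo2 and Map3k15 for CA2, Grik4 for CA3, and Prox1, Dsp and C1ql2 for granule cells of the dentate gyrus. The members were taken by gene symbol, and each symbol matched exactly 1 of the 54838 genes in the deposited count table. RNAseq was performed on hippocampi of 3 wild-type females and 3 FVB/NJ-Tg(Orai1)Ibd females, all aged 7 months, with 1 library per mouse. The transgenic mice carry a human ORAI1 cDNA in a modified Thy1.2 expression cassette, which drives it in neurons, and they belong to a single transgenic line, written Tg(ORAI1)Ibd in the plots. Wild-type mice carry no transgene, and the labels name no treatment for either genotype. ORAI1 is the pore of a plasma membrane Ca2+ channel that opens when the endoplasmic reticulum is emptied of Ca2+.

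Information passes through the hippocampus from the granule cells of the dentate gyrus along mossy fibres to CA3, and from there to CA2 and CA1. The principal neurons of these subfields are all glutamatergic, yet each expresses its own set of transcription factors, receptors, adhesion molecules and signalling proteins. None of these markers is found only in its subfield, since several are also expressed in the neighbouring cortex or in glia. In RNA from a whole hippocampus, fewer cells of a subfield and less RNA per cell cannot be told apart.

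In the wild-type libraries the counts on genes summed to 37710188 to 52497799, and in the transgenic libraries 37414241 to 47027279. Orai1 had 376, 302 and 306 counts in the wild-type and 14620, 12634 and 11834 counts in the transgenic libraries (log2 fold change 5.42, edgeR adjusted p = 3.8e-08), which matches the labels. Reads of the human cDNA are included only as far as they aligned to mouse Orai1. Counts are given below as CPM, counts scaled by TMM to a common library size, or as FPKM, which is CPM divided by the exonic length of the gene in kilobases. The quasi-likelihood test of edgeR was applied to the 19087 genes that passed a filter on low counts, and a gene is said to be called where its Benjamini-Hochberg adjusted p (edgeR adjusted p) was under 0.05. For 1 gene alone, 3 mice per genotype allow no exact permutation p (two-sided) under 0.1. Excitatory neuron markers were abundant in every library, for example Slc17a7, the vesicular glutamate transporter of these cells, with 1166 to 1457 CPM. Markers of the choroid plexus epithelium, which lines the ventricle beside the hippocampus, were lower in the transgenic libraries for 15 of 15 genes. All 15 were called, where 4.0% of all genes tested were called in the lower direction. Their summed level was 3873 to 6036 CPM in wild-type and 553 to 865 CPM in transgenic mice. This list was chosen with earlier results of these data known. Markers of the striatum stood out in wild-type mouse 2, with a summed level of 100.05 CPM against 13.7 to 20.5 CPM in the other 5 libraries. Markers of GABA neurons, the inhibitory cells of the hippocampus, were also summed. They had 501 to 642 CPM in wild-type and 427 to 493 CPM in transgenic mice. Of these 3 genes Gad2, an enzyme of GABA synthesis, was called (log2 fold change -0.52, edgeR adjusted p = 0.0272), where 7.10% of all genes tested were. All 3 had an unadjusted p under 0.05, where 27.8% of all genes tested did. Gad1 and Slc32a1 overlapped between genotypes (edgeR adjusted p = 0.116 and 0.177). The part of these differences in the results below was not tested. Values without wild-type mouse 2 leave out that whole library, so they do not isolate the part of its striatal markers.

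All 10 subfield markers passed the filter on low counts. Only Map3k15, a CA2 marker, had an adjusted p under 0.05, and it was lower in transgenic mice. This is 1 of 10, where 7.10% of all genes tested were called. In the lower direction 1 of 10 markers and 764 of all genes tested (4.0%) were called, and in the higher direction 0 of 10 markers and 3.10% of all genes. The transgenic and wild-type values did not overlap for Map3k15 and for the CA3 marker Grik4, which is 2 of 10 genes against 34.9% of all genes tested. Of these, 1 was lower and 1 was higher in transgenic mice, beside 17.9% and 16.9% of all genes. Log2 fold changes, transgenic minus wild-type, were above 0 for 7 markers and below 0 for 3, with a median of 0.049 beside -0.010 for all genes tested. The 9 markers that were not called are not shown to be equal between genotypes. Their 95% confidence intervals are therefore given with each gene.

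**Figure D1:**
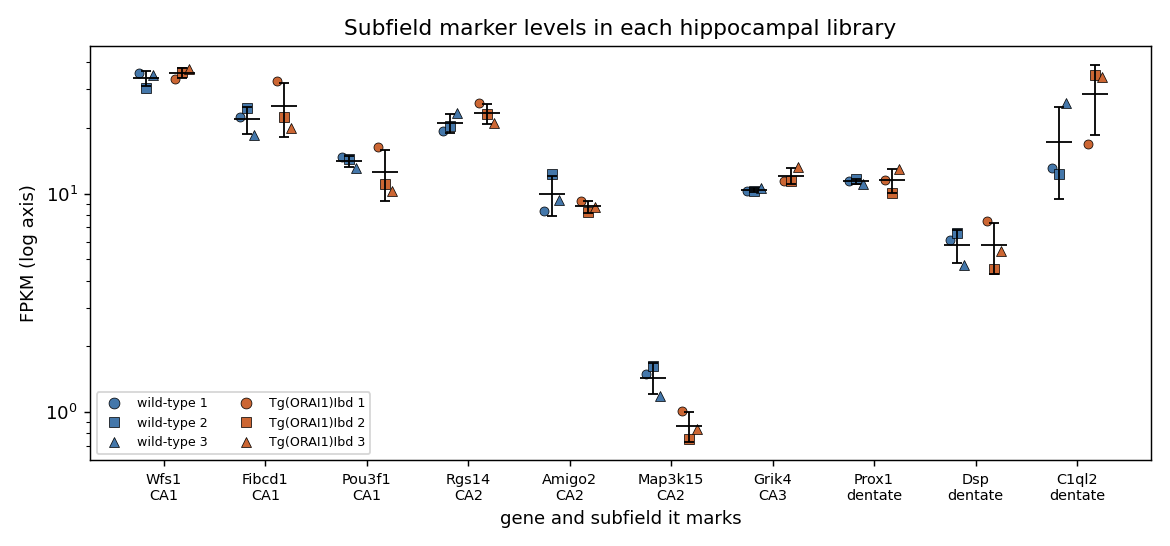
FPKM of each subfield marker (log axis) in the 6 libraries, with symbols for the 3 mice of each genotype, short lines for the group means and bars for the SD (n = 3). Wfs1 had the highest wild-type mean, at 33.7 FPKM, Map3k15 the lowest, at 1.44 FPKM, and C1ql2 the widest scatter between mice.

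Per length of gene, the markers spanned a wide range of levels in wild-type hippocampi. Wfs1 was highest with 33.7 ± 2.74 FPKM (SD, n = 3 mice), and each wild-type library of Wfs1 lay above each one of the next gene. Fibcd1 (21.9 ± 3.13), Rgs14 (20.98 ± 2.11), C1ql2 (17.2 ± 7.75) and Pou3f1 (14.1 ± 0.826 FPKM) followed, and neighbours in this order overlapped between mice. Prox1 (11.4 ± 0.264 FPKM) lay above Grik4 (10.4 ± 0.214 FPKM) in each wild-type library, while Grik4 overlapped with Amigo2 (10.0013 ± 2.07 FPKM). Dsp (5.82 ± 0.997 FPKM) and Map3k15 (1.44 ± 0.231 FPKM) were lowest, each below every wild-type value of the gene before it. In transgenic mice Wfs1 was again highest, with 35.6 ± 1.94 FPKM, and C1ql2 came next by its mean, with 28.7 ± 10.2 FPKM. Levels of different subfields measured this way also depend on how many cells each subfield contributes.

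Among the CA1 markers none was called. Wfs1 (ENSMUSG00000039474, chromosome 5 of GRCm38, 36966104 to 36989205, minus strand) encodes wolframin, a membrane protein of the endoplasmic reticulum. It had 135, 116 and 132 CPM in wild-type and 127, 137 and 141 CPM in transgenic mice. The groups overlapped, and wild-type mouse 2 was the lowest library. Wfs1 had a log2 fold change of 0.079, with a 95% confidence interval from -0.085 to 0.24 and an edgeR adjusted p = 0.510. This was the narrowest interval of the CA1 markers. Omitting wild-type mouse 2 gave 0.029, and the other omissions that moved the value by over 1.5 times, of wild-type mouse 1 and transgenic mouse 1, gave 0.14 and 0.12.

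Fibcd1 (ENSMUSG00000026841, chromosome 2, 31813290 to 31846005, minus strand) encodes a membrane receptor with a fibrinogen-like domain. Its values were 107, 117 and 88.0 CPM in wild-type and 156, 106 and 94.8 CPM in transgenic mice. Transgenic mouse 1 alone exceeded all wild-type mice. Fibcd1 had a log2 fold change of 0.20 (95% confidence interval -0.24 to 0.63, edgeR adjusted p = 0.542), and without transgenic mouse 1 it was -0.049. It was 0.096 without wild-type mouse 3, 0.31 without wild-type mouse 2, 0.30 without transgenic mouse 2 and 0.36 without transgenic mouse 3.

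Pou3f1 (ENSMUSG00000090125, chromosome 4, 124656807 to 124660655, plus strand) is a POU-domain transcription factor encoded by a single exon. Its values were 56.6, 55.7 and 50.7 CPM in wild-type and 63.1, 42.7 and 39.4 CPM in transgenic mice. Transgenic mouse 1 lay above all wild-type mice and the other two transgenic mice lay below them. For Pou3f1 the log2 fold change was -0.16 (95% confidence interval -0.55 to 0.22, edgeR adjusted p = 0.564). Without transgenic mouse 1 it was -0.40 and edgeR's adjusted p was 0.0272. It was -0.053 without transgenic mouse 2 and -0.012 without transgenic mouse 3, so that the value for Pou3f1 rested on which mice were included.

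Other CA1 genes were examined in the same way. Mpped1, Spink8 and Gpr161, listed as further CA1 genes from general knowledge, all passed the filter, and 0 of 3 had an adjusted or unadjusted p under 0.05, with a median log2 fold change of 0.063. Apart from Fibcd1 and Pou3f1, Mpped1 and Gpr161 also had their highest value in transgenic mouse 1, as did 23.7% of all genes tested, 3 of 8 CA2 genes and 3 of 9 dentate genes. Gpr161, an orphan G protein-coupled receptor, had 110.2 CPM in that mouse, 80.5 and 65.1 CPM in the other transgenic mice and 79.8 to 83.6 CPM in wild-type mice. Transgenic mouse 1 also had the lowest summed level of meningeal fibroblast markers, with 40.9 CPM against 82.6 to 140.4 CPM in the other libraries. Its summed levels of astrocyte, microglia, dentate mossy cell and subiculum markers were the lowest too. Its summed level of excitatory neuron markers was the highest, with 7280 CPM. The part of this in the CA1 values was not tested.

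Of the CA2 markers, Map3k15 fell in transgenic mice. Map3k15 (ENSMUSG00000031303, chromosome X, 159988433 to 160123351, plus strand) encodes a mitogen-activated protein kinase kinase kinase of the stress-response branch. Reads were few, with 342, 300 and 195 counts in wild-type and 206, 125 and 136 counts in transgenic libraries. After scaling it had 6.53, 7.10 and 5.15 CPM in wild-type and 4.41, 3.27 and 3.63 CPM in transgenic mice. Each transgenic value lay below each wild-type value. The log2 fold change was -0.73 with a standard error of 0.17 and a 95% confidence interval from -1.11 to -0.34 (edgeR adjusted p = 0.0444), which corresponds to 0.603 times the wild-type level.

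The size of the Map3k15 difference was stable, but its call was close to the threshold. When single libraries were omitted, values lay between -0.86 and -0.61 and edgeR's adjusted p between 0.0363 and 0.174. It was over 0.05 without wild-type mouse 1 (0.174), wild-type mouse 2 (0.160), transgenic mouse 2 (0.116) or transgenic mouse 3 (0.133). GC offsets remove from each library the trend of counts on the GC content of transcripts. With them the log2 fold change was -0.70 and edgeR's adjusted p was 0.0730. With gene length offsets the log2 fold change was -0.73 and edgeR's adjusted p was 0.0535. Exons of Map3k15 overlap those of Pdha1 on the opposite strand, and counting kept the strand.

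**Figure D2:**
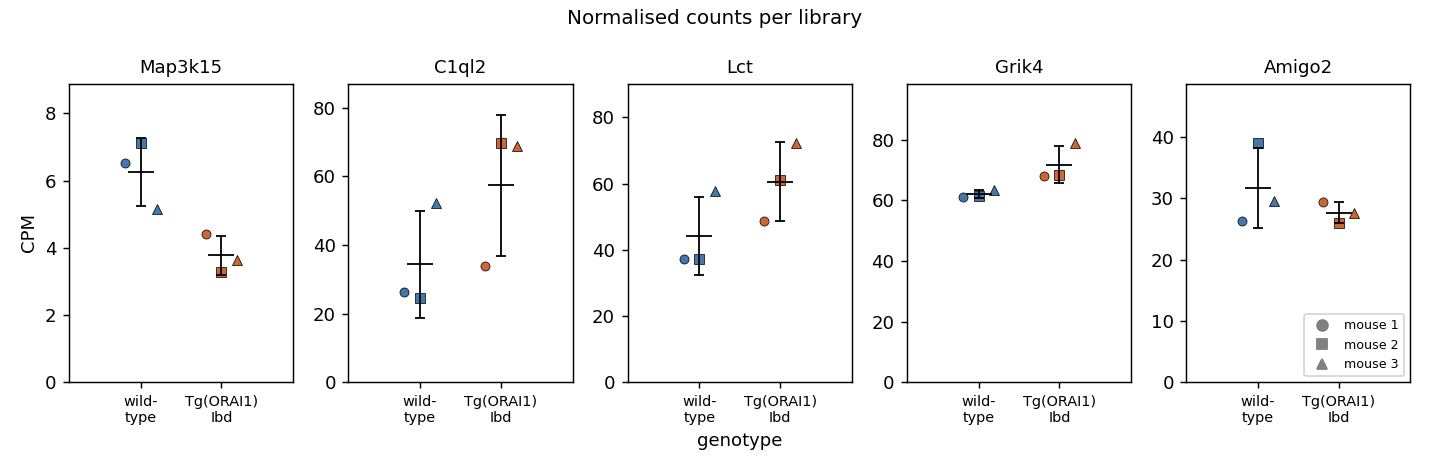
CPM of 4 subfield markers and of the granule cell gene Lct in each library, with 1 symbol per mouse, short lines for group means and bars for the SD (n = 3). All 3 transgenic values of Map3k15 lay below and all 3 of Grik4 above the wild-type values, while C1ql2, Lct and Amigo2 overlapped.

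Rgs14 and Amigo2, the other CA2 markers, were not called. Rgs14 (ENSMUSG00000052087, chromosome 13, 55369732 to 55384687, plus strand) encodes a regulator of G protein signalling that restrains synaptic potentiation in CA2 neurons. It had 81.7, 86.2 and 98.9 CPM in wild-type and 110.0, 97.6 and 88.8 CPM in transgenic mice, and the groups overlapped. Its log2 fold change was 0.15 (95% confidence interval -0.071 to 0.38, edgeR adjusted p = 0.341), and it was 0.069 without transgenic mouse 1, 0.25 without transgenic mouse 3 and 0.24 without wild-type mouse 3. Whether its fold change differs from that of Map3k15 was not tested. Amigo2 (ENSMUSG00000048218, chromosome 15, 97244125 to 97247287, minus strand) encodes an adhesion molecule with leucine-rich repeats.

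Amigo2 had 26.3, 38.954 and 29.6 CPM in wild-type and 29.4, 26.0 and 27.5 CPM in transgenic mice. Wild-type mouse 2 was far above the other 5 libraries, which lay between 26.0 and 29.6 CPM. Amigo2 had a log2 fold change of -0.19 (95% confidence interval -0.51 to 0.13, edgeR adjusted p = 0.398), and without wild-type mouse 2 it was -0.00028. It was -0.30 without wild-type mouse 1 and -0.13 without transgenic mouse 2. Amigo2 is also expressed outside CA2.

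None of the other listed CA2 genes was called. Pcp4, Necab2, Cacng5, Ntf3 and Avpr1b all passed the filter, 0 of 5 had an adjusted or unadjusted p under 0.05, and their median log2 fold change was -0.082. Pcp4, a calmodulin regulator that densely labels CA2, had 28.7, 39.9 and 28.0 CPM in wild-type and 30.8, 31.1 and 32.1 CPM in transgenic mice. This gave Pcp4 a log2 fold change of -0.038 (95% confidence interval -0.34 to 0.27). The vasopressin receptor Avpr1b was near the lower limit, with 28 to 52 counts per library. Wild-type mouse 2 was the highest library for 5 of 8 CA2 genes, markers included, where 15% of all genes tested were highest in it. This is the library with the high striatal markers, such as the signalling regulator Rgs9 with 42.1 CPM against 8.12 to 9.07 CPM elsewhere. Pcp4 is also expressed in striatal neurons.

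Grik4 (ENSMUSG00000032017, chromosome 9, 42518135 to 42944493, minus strand), the CA3 marker, encodes a high-affinity subunit of kainate-type glutamate receptors. It had 61.3, 61.4 and 63.5 CPM in wild-type and 68.1, 68.4 and 78.8 CPM in transgenic mice. Each transgenic value lay above each wild-type value, and the wild-type mice were close together. For Grik4 the log2 fold change was 0.21 (standard error 0.065, 95% confidence interval 0.059 to 0.36), with an unadjusted p = 0.0127 and an edgeR adjusted p = 0.0883, so that it did not pass the threshold. DESeq2's Wald test gave an adjusted p of 0.0391. With GC offsets the log2 fold change was 0.15, where edgeR's adjusted p was 0.256. A small RNA gene, Gm24420, lies within an exon of Grik4 on the same strand and had 0 counts in every library.

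The other CA3 genes were Bok, Iyd and Nectin3, and 0 of 3 had an adjusted p under 0.05. Iyd, an iodotyrosine deiodinase, had 5.90, 5.49 and 6.05 CPM in wild-type and 7.31, 6.84 and 6.65 CPM in transgenic mice, without overlap. Its log2 fold change was 0.25 (95% confidence interval 0.034 to 0.47, edgeR adjusted p = 0.133). Bok, a relative of the apoptosis regulator Bcl2, and the adhesion molecule Nectin3 had log2 fold changes of -0.014 and -0.054, with overlapping groups.

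Prox1, Dsp and C1ql2 mark dentate granule cells, and none was called. Prox1 (ENSMUSG00000010175, chromosome 1, 190118035 to 190170714, minus strand), the homeobox factor that maintains granule cell identity, had 95.5, 97.6 and 93.2 CPM in wild-type and 97.2, 84.3 and 108.8 CPM in transgenic mice. The groups overlapped, and the wild-type range lay inside the transgenic range. Prox1 had a log2 fold change of 0.020, with a 95% confidence interval from -0.18 to 0.22 (edgeR adjusted p = 0.911). With single libraries left out it ran from -0.051 (without transgenic mouse 3) to 0.13 (without transgenic mouse 2). Dsp (ENSMUSG00000054889, chromosome 13, 38151294 to 38198577, plus strand) encodes desmoplakin, a protein that anchors intermediate filaments at cell junctions. It had 59.2, 64.0 and 45.4 CPM in wild-type and 72.6, 43.5 and 52.9 CPM in transgenic mice. Dsp had a log2 fold change of 0.0044 with a wide 95% confidence interval from -0.45 to 0.46 (edgeR adjusted p = 0.993), and its sign depended on the setting.

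C1ql2 (ENSMUSG00000036907, chromosome 1, 120340582 to 120343174, plus strand) encodes a secreted C1q-like protein that granule cells release at mossy fibre synapses. It had 26.2, 24.7 and 52.2 CPM in wild-type and 33.8, 69.6 and 68.7 CPM in transgenic mice. The groups overlapped, because wild-type mouse 3 lay above transgenic mouse 1. The log2 fold change was the largest upward value of the 10 markers, 0.74, but its standard error was 0.36 and its 95% confidence interval ran from -0.090 to 1.57 (edgeR adjusted p = 0.224). Without wild-type mouse 3 it was 1.17 (edgeR's adjusted p 0.0700) and without wild-type mouse 2 it was 0.56 (edgeR's adjusted p 0.450).

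The scatter of C1ql2 between mice of one genotype was itself unusual. Its SD of log2 CPM within genotypes was 0.60, larger than that of 99.5% of the 11189 genes with a mean log2 CPM above 3, whose median was 0.079. Dsp (0.32), Fibcd1 (0.31) and Pou3f1 (0.26) also each varied more than at least 95.7% of these genes, while Wfs1 (0.10) and Grik4 (0.087) varied more than 67.2% and 56.7%. C1ql2 had 1043 or more counts in every library.

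C1ql2 was higher in wild-type mouse 3 and transgenic mice 2 and 3 than in the other libraries, and these are the 3 libraries whose total counts lie below the median of the 6. The same order was found for 11.4% of all genes tested, and for the summed level of 6 of 13 cell type lists. These were the lists of astrocytes, microglia, endothelium, meningeal fibroblasts, dentate mossy cells and the subiculum. Not every gene of these lists had this order. Drd2 and Calcrl of the mossy cell list and Nts of the subiculum list did not. Nor did Cldn5 and Flt1 of the endothelium and Ogn and Slc22a6 of the meningeal fibroblasts. Fibcd1, Pou3f1 and Dsp had the reverse order, which 9.47% of all genes tested had. Among the 3 libraries with low totals C1ql2 had 52.2 CPM in the wild-type mouse and 69.6 and 68.7 CPM in the transgenic mice, and among the other 3 it had 26.2 and 24.7 CPM in the wild-type mice and 33.8 CPM in the transgenic mouse. These sets were noticed from the values of C1ql2 itself and each holds 1 mouse of a genotype, so that they are a description only.

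A model with this class of library total as a covariate was added after these values were seen. In it 3 of 10 markers had an adjusted p under 0.05, where 20.0% of all genes tested did. The log2 fold changes were 0.41 for C1ql2 (standard error 0.046, edgeR's adjusted p 0.00318), 0.34 for Fibcd1 (standard error 0.075, edgeR's adjusted p 0.0207) and -0.60 for Map3k15 (standard error 0.11, edgeR's adjusted p 0.0108). Since the covariate was chosen from the same libraries, these calls are a description and not independent of the pattern that led to them. Whether the library total or the tissue taken underlies the order cannot be told apart in these data.

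Other granule cell genes, C1ql3, Tdo2, Dock10, Plk5, Glis3 and Lct, gave 0 of 6 calls, with a median log2 fold change of -0.091. Lct, the intestinal lactase, which is also transcribed in granule cells, had 37.3, 37.4 and 57.8 CPM in wild-type and 48.6, 61.2 and 72.2 CPM in transgenic mice. As for C1ql2, the lowest values were those of wild-type mice 1 and 2 and transgenic mouse 1. Its log2 fold change was 0.46 (95% confidence interval -0.0078 to 0.93, edgeR adjusted p = 0.186). C1ql3, a close relative of C1ql2, had 96.7, 88.5 and 97.3 CPM in wild-type and 80.7, 84.5 and 75.3 CPM in transgenic mice, without overlap and in the other direction. The log2 fold change of C1ql3 was -0.23 (95% confidence interval -0.37 to -0.092, edgeR adjusted p = 0.0592). Plk5, a polo-like kinase of differentiated neurons, had a log2 fold change of 0.32 (edgeR adjusted p = 0.0785), also without overlap. The granule cell genes thus gave values in both directions.

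**Figure D3:**
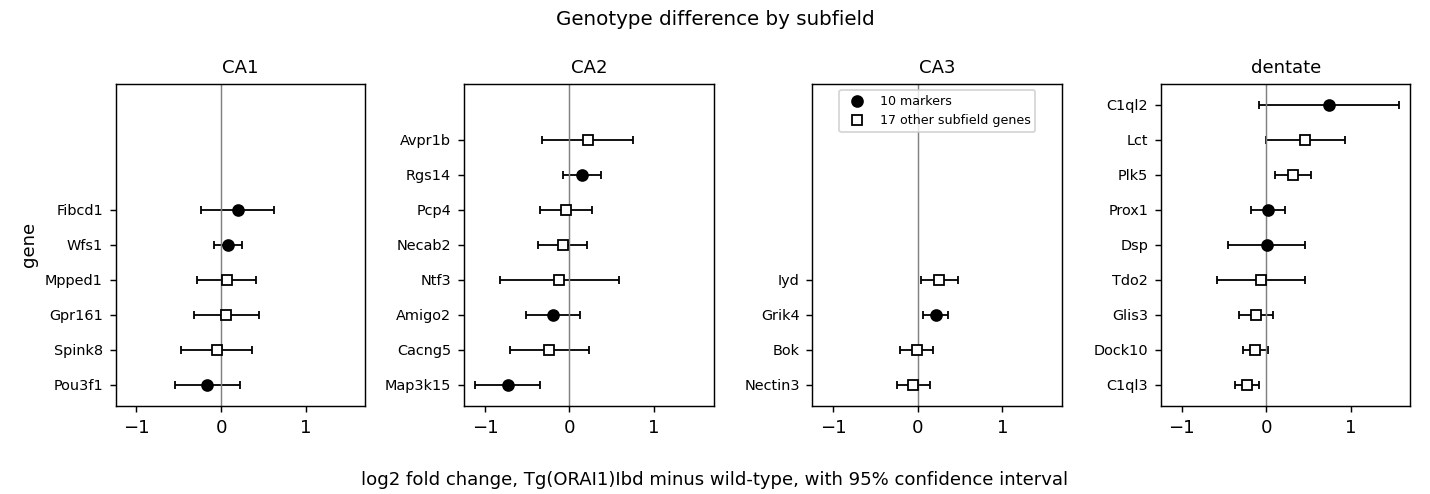
Log2 fold change, transgenic minus wild-type, of the 10 markers (filled circles) and 17 other subfield genes (open squares), with bars for the 95% confidence interval. In CA1 all intervals cross 0, in CA2 only that of Map3k15 does not, and dentate genes run from -0.23 for C1ql3 to 0.74 for C1ql2.

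Over the 17 other subfield genes, 0 were called by edgeR, and 3 had an unadjusted p under 0.05, where 27.8% of all genes tested did. Of the general markers of excitatory hippocampal neurons, Slc17a7 and the transcription factor Neurod2 were higher in transgenic mice, with log2 fold changes of 0.26 and 0.32 (edgeR adjusted p = 0.0356 and 0.0239). Camk2a, Neurod6, Nrgn and Zbtb20 of the same list were not called, with log2 fold changes from -0.22 to 0.24.

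The balance between subfields was described from the mean log2 CPM of the markers of each one. For CA1 minus dentate it was 0.82, 0.76 and 0.47 in wild-type and 0.80, 0.43 and 0.14 in transgenic mice, means of 0.68 ± 0.19 and 0.45 ± 0.33 (SD, n = 3). The difference of -0.23 was smaller than the pooled SD of 0.27, and the groups overlapped. It was -0.10 when taken from summed CPM and ran from -0.40 to -0.072 with single libraries left out. CA3 minus dentate differed by -0.043 and CA1 minus CA3 by -0.19, both with overlap. For CA2 minus dentate the means were -1.10 ± 0.20 in wild-type and -1.60 ± 0.24 in transgenic mice, without overlap, and both Map3k15 and C1ql2 enter this value. CA2 minus CA3 (a difference of -0.46) and CA1 minus CA2 (0.27) did not overlap either, and Map3k15 enters both. For CA1 minus CA2 the groups were barely apart, with 1.950 in wild-type mouse 1 and 1.957 in transgenic mouse 3. Summed CPM, in which the low Map3k15 counts little, was tried for these balances after they were seen. It gave differences of -0.14 for CA2 minus dentate, -0.17 for CA2 minus CA3, 0.037 for CA1 minus CA2, -0.13 for CA1 minus CA3 and 0.032 for CA3 minus dentate, all with overlapping groups. These summaries are over chosen genes and carry no test.

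The fold changes of all genes in these libraries followed the GC content of the transcripts, with a median log2 fold change of -0.18 in the lowest decile of GC content and 0.13 in the highest. The markers lay in deciles 4 to 10, from 48.6% for Map3k15 to 63.9% for Pou3f1, and none lay in the lowest 3 deciles. Coding stretches of 90 bases with nearly the composition of the whole transcript are shown for the markers with the lowest and the highest GC content, with G and C in capitals. They lie in exon 4 of Map3k15 (chrX:160041013-160041102, plus strand), exon 2 of Amigo2 (chr15:97246331-97246420, minus strand), exon 1 of C1ql2 (chr1:120341280-120341369, plus strand) and the single exon of Pou3f1 (chr4:124658406-124658495, plus strand), all of GRCm38, as transcribed.
Map3k15: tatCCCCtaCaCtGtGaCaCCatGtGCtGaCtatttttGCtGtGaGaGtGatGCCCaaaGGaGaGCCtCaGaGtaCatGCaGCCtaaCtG
Amigo2: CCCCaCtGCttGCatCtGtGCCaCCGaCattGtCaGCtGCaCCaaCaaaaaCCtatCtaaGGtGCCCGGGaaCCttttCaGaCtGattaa
C1ql2: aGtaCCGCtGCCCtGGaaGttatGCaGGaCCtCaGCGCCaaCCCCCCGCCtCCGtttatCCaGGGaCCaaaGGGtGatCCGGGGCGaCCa
Pou3f1: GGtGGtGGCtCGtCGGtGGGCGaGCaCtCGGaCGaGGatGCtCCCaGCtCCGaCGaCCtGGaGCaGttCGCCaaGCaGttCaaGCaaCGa
G and C make up 44 and 45 of the 90 bases in the upper pair of stretches and 57 and 58 in the lower pair.

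Removing the GC trend lowered the values of the GC-rich markers. With GC offsets the log2 fold change of Pou3f1 went from -0.16 to -0.36, that of C1ql2 from 0.74 to 0.58, that of Fibcd1 from 0.20 to 0.061 and that of Wfs1 from 0.079 to -0.026. For Rgs14 it went from 0.15 to 0.056 and for Grik4 from 0.21 to 0.15. The values of Map3k15 (-0.73 and -0.70), Amigo2 (-0.19 and -0.18) and Prox1 (0.020 and 0.022) were nearly the same without and with the offsets. With these offsets 0 of 10 markers were called by edgeR, where 2.46% of all genes tested were.

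**Figure D4:**
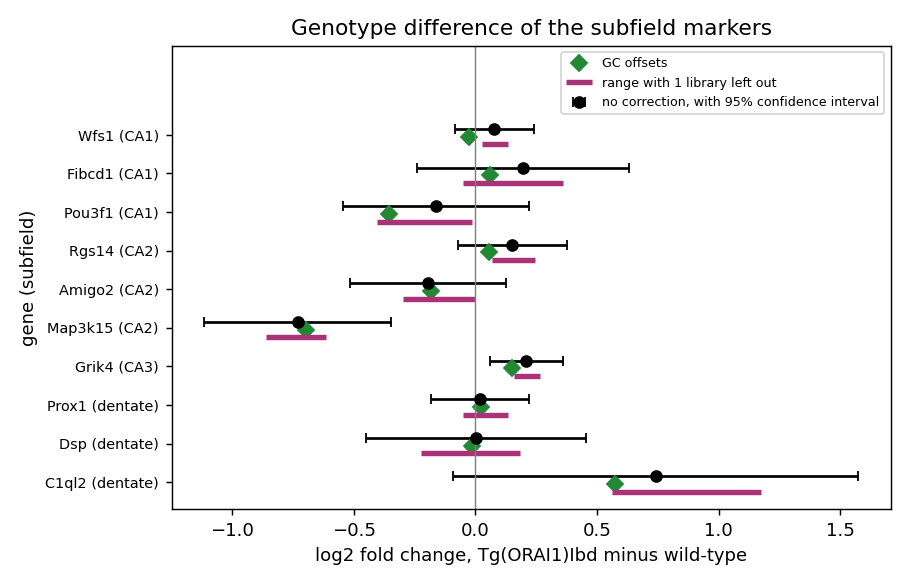
Log2 fold change, transgenic minus wild-type, of each marker. Black points and bars give the value and its 95% confidence interval, green diamonds the value with GC offsets, and purple lines the range when 1 library is left out. Map3k15 stayed between -0.86 and -0.61, while Fibcd1, Prox1 and Dsp crossed 0.

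For 1 marker of each subfield, the genes of most similar pattern were those with the smallest root mean square difference of centred log2 CPM over the 6 libraries, among genes with a mean log2 CPM above 3. They were Tyw5, Lpcat3 and Zfp90 for Wfs1 (differences of 0.030 to 0.034), Gm12696, Fam20a and Msrb2 for Rgs14 (0.028 to 0.038), Frat1, Rbm12b1 and Gm49601 for Grik4 (0.022 to 0.038), and Pvt1, Rreb1 and Zkscan6 for Prox1 (0.034 to 0.044). No other subfield marker or listed subfield gene was among them. For Map3k15 and C1ql2 the nearest genes were looked up after their values were seen. Because these genes were chosen for a similar pattern, their fold changes and adjusted p-values follow from that choice. They are no separate support for a difference in Map3k15 or C1ql2. Strip2, Gm19410 and Camk4 came nearest to Map3k15 (0.078 to 0.10), with log2 fold changes from -0.87 to -0.63 and edgeR adjusted p-values of 0.0201 to 0.0406. Blnk, Krt2 and Sox11, a transcription factor of immature neurons, came nearest to C1ql2 (0.11 to 0.13). Sox11 had 18.2, 16.4 and 28.5 CPM in wild-type and 22.2, 39.6 and 46.0 CPM in transgenic mice, with an edgeR adjusted p = 0.138.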

How the data were processed

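The authors trimmed reads with Trimmomatic, aligned them to mm10 with STAR and counted reads with featureCounts 1.5.0-p1 on Ensembl 95 gene models (paired-end option, strand setting 2, primary alignments with a mapping quality of at least 3). The labels call the run paired-end but give the length of a single read, so whether a count is a read or a fragment is not settled. The authors deposited these raw counts per gene and library, with no normalization, beside gene lengths over exons, in bp. Versions of Trimmomatic and STAR are not given in the sources used here. Libraries were assigned to genotypes by their labels.

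Of the 54838 genes, 54809 were found in GENCODE M21, which gave symbols, positions and transcript GC content. Genes were filtered with edgeR's filterByExpr (minimum count 10), scaled by TMM and compared with edgeR's quasi-likelihood test without covariates. Log2 CPM had a prior count of 2. Alternatives were other scalings, filters and tests, leaving out each mouse, the replicate number as a block, and loess offsets (span 0.5) for GC content or gene length. The paper's own test, NOISeq, was not repeated. The labels do not say whether mice were littermates. The edgeR p-values set the genotype difference against a spread between these mice that is shared across genes. The fits were tested on simulated data (seed 7). Markers and gene lists were chosen with earlier results of these data known. R 4.3.3, edgeR 4.0.16, limma 3.58.1, DESeq2 1.42.0 and Python 3.11.15 were used. All 10 markers, further subfield genes, cell type markers and nearest-pattern genes for Wfs1, Rgs14, Grik4 and Prox1 were named by rule, and other names were chosen after their values were seen. A listed gene is not reported here.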

Additional observations from a re-analysis of the deposited data

How the results depend on the processing

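Other scalings, limma-voom and other filters left 1 marker called, and Map3k15 kept its direction under all 19 alternatives, the added covariate included. With DESeq2's Wald test 1055 of all genes were higher, 1175 lower and 2 markers were called. With the replicate block the numbers were 263, 475 and 0, with gene length offsets 452 genes were lower and 0 markers were called, and with GC offsets they were 158, 312 and 0. GC offsets with the replicate block gave 88, 299 and 0, and gene length offsets with the replicate block 187, 334 and 0. The covariate for library total, chosen after seeing the data, gave 1921, 1899 and 3. With 1 library left out, 11 to 466 genes were higher, 66 to 683 lower and 0 to 2 markers were called, and the difference of CA1 minus dentate ran from -0.40 to -0.072. Without transgenic mouse 1 the called markers were Map3k15 and Pou3f1. Fewer samples entered these fits, and the other causes were not tested.

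The replicate block gave Map3k15 a log2 fold change of -0.73 with edgeR's adjusted p of 0.0540, where the threshold is 0.05. Same-numbered mice deviated from their group means with correlations of 0.398, -0.357 and 0.388, and 2 of 6 libraries correlated best with their own number, so the numbers were not taken to pair the mice.

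The sign changed for 4 markers that were not called without the covariate for library total. Wfs1 was -0.026 with GC offsets and -0.025 with GC offsets and the block. With 1 library left out Fibcd1 ran from -0.049 (without transgenic mouse 1) to 0.36, Prox1 from -0.051 (without transgenic mouse 3) to 0.13, and Dsp from -0.22 (without transgenic mouse 1) to 0.19, with -0.12 without wild-type mouse 3. Dsp was also -0.00038 with total counts only, -0.012 with limma-voom, -0.010 with the replicate block, -0.012 with GC offsets and -0.025 with both.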
